A study of Caenorhabditis elegans with 2 samples.

Results

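Aminoacyl-tRNA synthetases join each amino acid to its transfer RNA, and their genes were described here as places where JUN-1 was or was not found on the chromatin of Caenorhabditis elegans larvae. The members were the protein-coding genes of the Ensembl WBcel235 annotation whose symbol is 1 letter, "ars" and a number, which gave 32 of 19973 genes. By enzyme, 16 serve the cytosol, 12 serve mitochondria and 4 make enzymes for both compartments from 1 gene (called dual-role). Chromatin immunoprecipitation sequencing (ChIP-seq) had been done on whole L3 larvae, males and females pooled, of strain OP234. That strain carries the mutation unc-119(ed3) on chromosome III and the integrated transgene wgIs234, and its tagged protein is eGFP-JUN-1, with no promoter of the transgene named in the sources used here. JUN-1 is a basic leucine zipper transcription factor of the AP-1 class. The study has 2 biological replicates of this 1 group, so no condition could be compared, and each value is an average over all cells of the larvae.

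A synthetase recognises 1 amino acid and its tRNAs, and the charged tRNA is then carried to the ribosome by an elongation factor. Cells that translate in both the cytosol and mitochondria need an enzyme for each place, either from separate nuclear genes or from 1 gene read in more than one form. When charging falls short, uncharged tRNA activates the kinase GCN-2, and the resulting stress response raises amino acid genes through the bZIP factor ATF-4 in many animals.

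Each gene was scored by the listed region of highest signal value whose summit lay from 1000 bp upstream to 500 bp downstream of any of its 5′ ends. The signal value is the authors' own score for a region, on a scale that the sources used here do not give. Ranks were taken only within a list, and values from different lists are set side by side with no known common scale. The authors' 4 lists on build ce11 were used: 1 per replicate, 1 from the pooled replicates, and the IDR list (irreproducible discovery rate), which was made from the pooled and replicate lists. The IDR list held 2738 regions with signal values from 31.4 to 474. The pooled list held 20820 regions, of which 2738, the same number as in the IDR list, lay at or above the lowest IDR value. Replicate 1 had 27417 regions and replicate 2 had 28475. The authors named the pooled and replicate lists as peaks and background for input to IDR. A region found only in those lists may therefore be background. A listed region is at most a location of JUN-1 signal and says nothing of whether the gene there was transcribed more or less. Read depth is unknown, so no counting interval can be given for a signal value.

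The sequences at the summits on which the results turn are printed 5′ to 3′ on the strand of the synthetase gene, from the RefSeq FASTA of WBcel235, the same assembly as ce11. Each covers the bases within 50 bp of the strongest pooled summit, with any exon of a coding gene removed. The capital letter marks the summit base. The first 3 belong to the synthetase genes with an IDR region, and the other 2 to the highest-scoring cytosolic gene and to a mitochondrial gene with its summit close to the 5′ end. They lie at chrIV:390469-390559 for ears-2, chrII:11464498-11464564 for aars-1, chrII:7073275-7073375 for kars-1, chrIV:11635749-11635849 for mars-1 (all on the minus strand) and chrV:8031323-8031410 for vars-1 (plus strand).
ears-2: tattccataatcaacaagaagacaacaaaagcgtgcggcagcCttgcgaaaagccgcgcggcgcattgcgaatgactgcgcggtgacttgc
aars-1: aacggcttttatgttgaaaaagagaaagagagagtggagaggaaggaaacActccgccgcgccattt
kars-1: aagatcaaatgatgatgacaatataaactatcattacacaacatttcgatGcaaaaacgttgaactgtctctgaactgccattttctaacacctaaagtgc
mars-1: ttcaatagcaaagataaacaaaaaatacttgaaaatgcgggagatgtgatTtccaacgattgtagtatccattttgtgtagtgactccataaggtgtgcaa
vars-1: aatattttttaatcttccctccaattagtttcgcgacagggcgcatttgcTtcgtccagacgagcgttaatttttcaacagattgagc
The ears-2 sequence is the whole 91 bp between the annotated ends of ears-2 and its divergent neighbour, and 53.8% of its bases are G or C. The aars-1 sequence is 46.3% G or C and holds a purine-rich run before the summit.

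Of the 32 synthetase genes, 3 had an IDR summit in the window, or 9.38%, beside 9.52% of all coding genes. They were ears-2 and aars-1, which make the mitochondrial glutamyl- and alanyl-tRNA synthetases, and kars-1, the dual-role lysyl enzyme. None of the 16 cytosolic genes had one. In the mitochondrial class the count was 2 of 12 (16.7%) and in the dual-role class 1 of 4 (25%). A single gene is 6.25% of the cytosolic class, so these shares move in coarse steps, and genes are not replicates, so no test was made between classes.

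In the longer pooled list, which has a lower minimum value, the classes stood in another order. A summit was listed for 24 of the 32 genes (75%), beside 39.3% of coding genes, and for 13 of 16 cytosolic (81.2%), 7 of 12 mitochondrial (58.3%) and all 4 dual-role genes. Replicate 1 listed 19 members (59.4%, beside 45.5% of coding genes) and replicate 2 listed 23 (71.9%, beside 45.9%). The replicates differed most for the cytosolic enzymes, with 8 of 16 listed in replicate 1 and 14 of 16 in replicate 2. Regions in both replicates, not always at the same place in the window, were found for 16 members (50%, beside 32.2% of coding genes). At least 1 list held a region for all but 5 members, and 59.8% of coding genes had one.

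**Figure D1:**
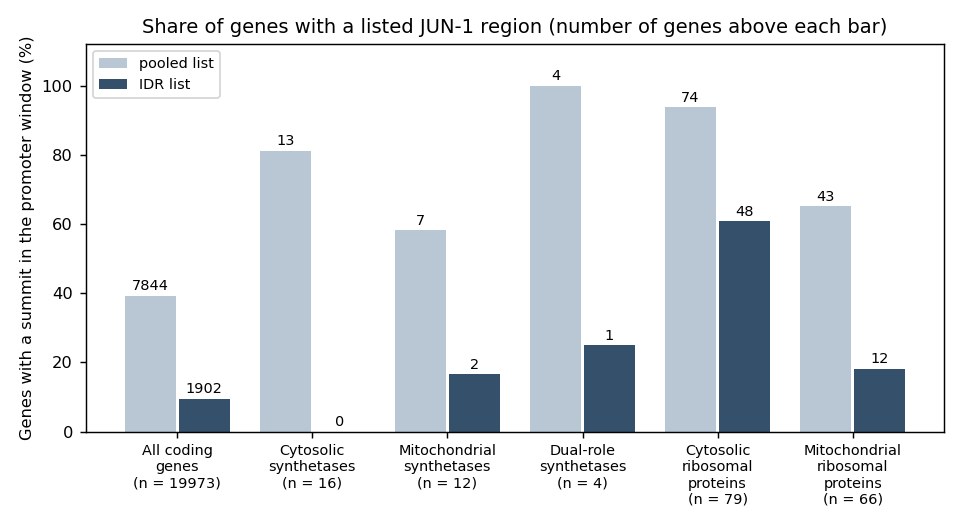
Share of genes (percent, bars from 0) with a summit in the promoter window in the pooled list (light) and the IDR list (dark), for all coding genes, the 3 synthetase classes and the 2 kinds of ribosomal protein gene, with the number of genes above each bar. Synthetase classes stand above all coding genes (39.3%) in the pooled list, while in the IDR list the cytosolic class is at 0 of 16.

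Most of those regions were weak. The −log10 of the pooled q-value was 2.17 to 3.73 at ears-2, aars-1, kars-1, mars-1, nars-1 and vars-1. At every other listed member it was 1.10 or lower, down to 0.0318 at wars-1. Among the 24 listed members the strongest pooled signal values ran from 9.11 to 60.7 with a median of 16.2, beside a median of 17.1 and quartiles of 11.4 and 30.9 for the 7844 coding genes with a pooled region. The class medians were 14.9 (cytosolic, 13 genes), 10.9 (mitochondrial, 7 genes) and 18.2 (dual-role, 4 genes). With unlisted genes at 0, the medians were 10.6, 9.71 and 18.2 in the same order and 0 over all coding genes. The mitochondrial class held the 2 highest synthetase values. Its place among the medians was not stable: it was 19.0 in a window reaching 2000 bp upstream, and in the replicate lists it was 6.85 in replicate 1 and 13.2 in replicate 2, beside 7.57 and 8.50 for the cytosolic and 10.2 and 10.1 for the dual-role genes.

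**Figure D2:**
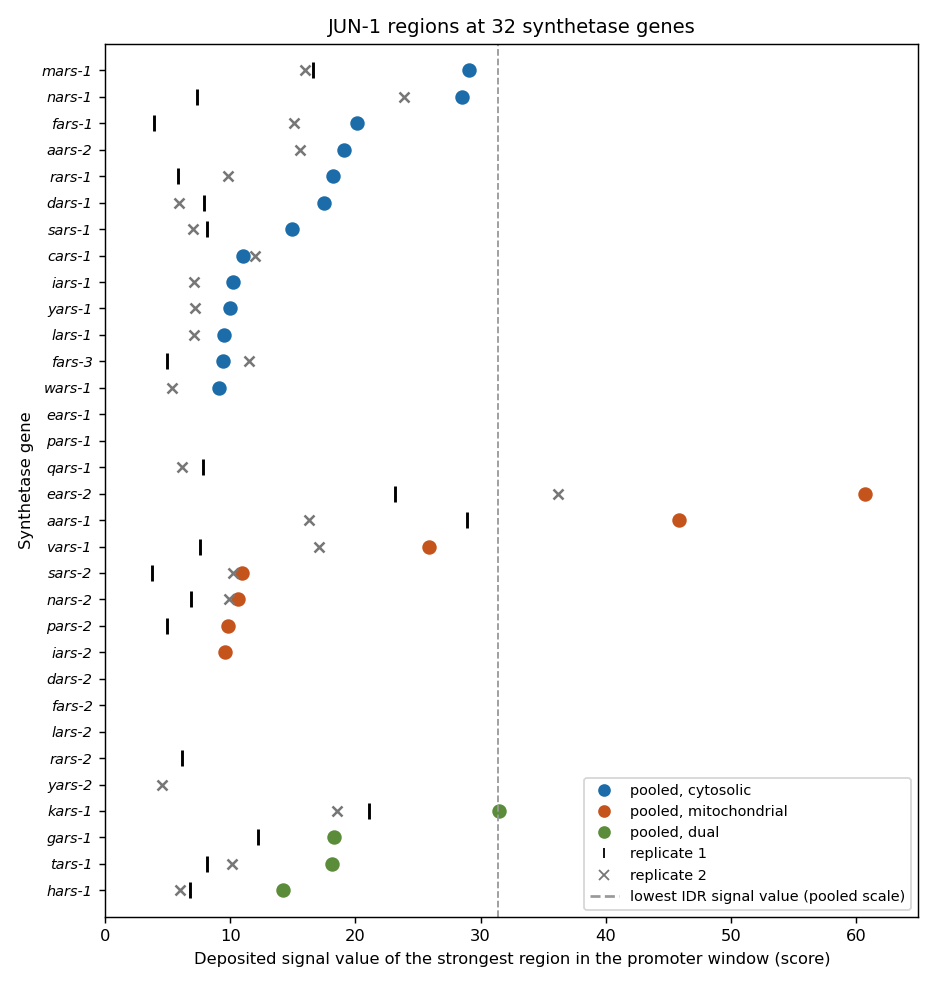
Signal value (the authors' score) of the strongest region in the window of each of the 32 genes, with the pooled value as a filled circle coloured by class, replicate 1 as a bar and replicate 2 as a cross. The dashed line is the lowest IDR value, 31.4, which applies to pooled values only, and only ears-2, aars-1 and kars-1 reach it.

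The ears-2 promoter gave the highest value of the family. Its region had a signal value of 60.7 in the pooled list, 23.2 in replicate 1 and 36.2 in replicate 2, which is rank 824 of the pooled regions and rank 594 among coding genes with one. The pooled summit lay 49 bp upstream of ears-2 and 43 bp upstream of uncp-18, in the 91 bp between them, so the list cannot assign it to either gene. Both replicates placed their summit in that gap.

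The alanyl enzyme gene aars-1 had a pooled value of 45.9, with 28.9 in replicate 1 and 16.3 in replicate 2. Here replicate 1 had the higher value, the opposite of ears-2, and the better rank in its list, 692 against 3522. The pooled summit was 17 bp upstream of the aars-1 5′ end and 380 bp upstream of rga-1, its divergent neighbour, so it lay close to the synthetase.

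The kars-1 region stood at the edge of the list and far from the gene. Its pooled value of 31.5 is rank 2722 of the 2738 IDR regions. The summit lay 910 bp upstream of kars-1 and 489 bp upstream of kat-1, a divergent gene for a thiolase. In replicate 1 the strongest region of the window was at that place with 21.1. In replicate 2 the region there had only 7.04 and rank 13981, against rank 1324 in replicate 1, and its strongest, with 18.5, was 426 bp upstream of kars-1, where the pooled list has a second region of 13.4.

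**Figure D3:**
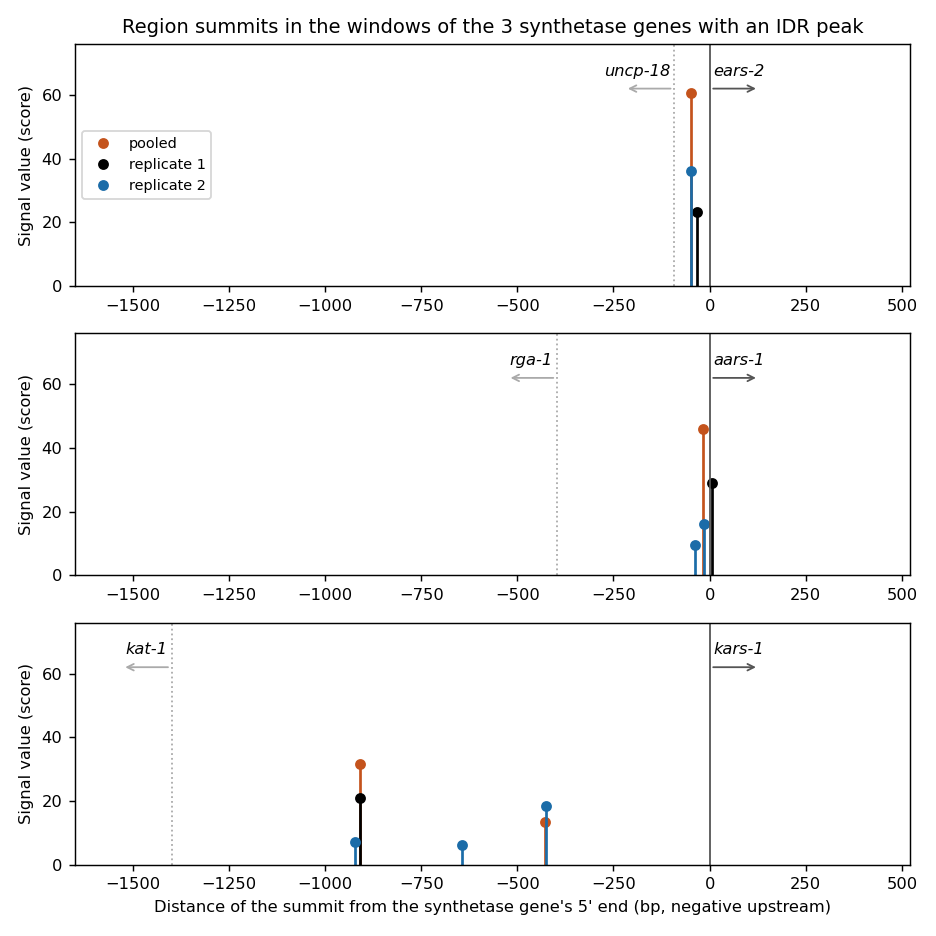
Summits in the windows of ears-2, aars-1 and kars-1 by distance from the synthetase 5′ end (bp, negative upstream), with height giving the signal value (score) in the pooled list and each replicate. Solid and dotted lines mark the 5′ ends of the synthetase and of the divergent neighbour at the ends used to measure distance; the summits sit together at ears-2 and aars-1 and apart at kars-1.

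Just below the lowest IDR value stood 2 cytosolic enzymes. The methionyl gene mars-1 had 29.1 pooled, 16.6 in replicate 1 and 16.0 in replicate 2, with the pooled summit 312 bp upstream. Its rank was better in replicate 1, 2068 against 3622 in replicate 2. The asparaginyl gene nars-1 had 28.5 pooled, 7.35 in replicate 1 and 23.9 in replicate 2, with the pooled summit 325 bp upstream. At that summit replicate 1 had only 3.85, so the nars-1 value came mainly with replicate 2. The nars-1 summit was also 353 bp upstream of nduf-6, which encodes a subunit of respiratory complex I.

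The mitochondrial valyl gene vars-1 followed with 25.9 pooled, 7.55 in replicate 1 and 17.1 in replicate 2, and its summit was 38 bp upstream, in the promoter window of no other coding gene. The fars-1 gene, for a subunit of the cytosolic phenylalanyl enzyme, had 20.1 pooled, 3.87 in replicate 1 and 15.1 in replicate 2. Its summit was 883 bp upstream of fars-1 but 159 bp upstream of rbm-5, within a 3′ untranslated region of T08B2.15. Both genes had the higher value in replicate 2.

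The other listed cytosolic genes fell into a middle and a low group. Pooled values were 19.1 at aars-2, 18.2 at rars-1, 17.5 at dars-1 and 14.9 at sars-1. Those of cars-1, iars-1, yars-1, lars-1, fars-3 and wars-1 lay between 9.11 and 11.0, near the lowest value of the pooled list, 8.67. Of these 10 genes, rars-1, dars-1, sars-1 and fars-3 had a region in both replicates, and the other 6 only in replicate 2. The fars-3 regions lay apart, 611 bp upstream in replicate 1 and 150 bp upstream in replicate 2. The rars-1 summit lay 966 bp upstream of rars-1 and 135 bp upstream of rpb-8, an RNA polymerase subunit gene, and that of dars-1 was in a coding exon of ctr-9, which encodes a subunit of the PAF1 complex.

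The other listed mitochondrial genes were all low, with pooled values of 10.9 at sars-2, 10.6 at nars-2, 9.85 at pars-2 and 9.58 at iars-2. Both replicates listed a region for sars-2 and nars-2, only replicate 1 for pars-2, and neither for iars-2. The strongest nars-2 regions lay apart, 369 bp upstream in replicate 1 and 191 bp downstream in replicate 2. Of the other dual-role genes, gars-1 had 18.3, tars-1 18.1 and hars-1 14.2. Replicate 2 listed no region in the gars-1 window.

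No pooled region was listed for 8 members. Of these, qars-1 had a region in both replicates (7.79 in replicate 1 and 6.12 in replicate 2), rars-2 only in replicate 1 (6.15) and yars-2 only in replicate 2 (4.55). The cytosolic genes ears-1 and pars-1 and the mitochondrial genes dars-2, fars-2 and lars-2 had none in any list. In all, 5 of the 12 mitochondrial genes and 3 of the 16 cytosolic genes had no pooled region, beside 12129 of the 19973 coding genes.

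Both enzymes of the same amino acid could be set side by side for 11 amino acids. The cytosolic gene had the higher pooled value for 8 of them and the mitochondrial gene for 3, which were alanine, glutamate and proline. Genes with no pooled region counted as 0, and for phenylalanine the higher of the cytosolic subunit genes was taken. For leucine (9.50 at lars-1), proline (9.85 at pars-2) and tyrosine (yars-1), a region near the lowest pooled value, 8.67, was set against 0. The rars-1 and fars-1 summits lay nearer to rpb-8 and rbm-5. The 8 and 3 were therefore not read as a difference between compartments. For glutamate the mitochondrial ears-2 had 60.7 while ears-1 had no region. For alanine aars-1 had 45.9 and aars-2 had 19.1. For isoleucine the values were close, 10.2 at iars-1 and 9.58 at iars-2. The mitochondrial partner was unlisted in 5 of the 8 cases in which the cytosolic gene was higher.

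**Figure D4:**
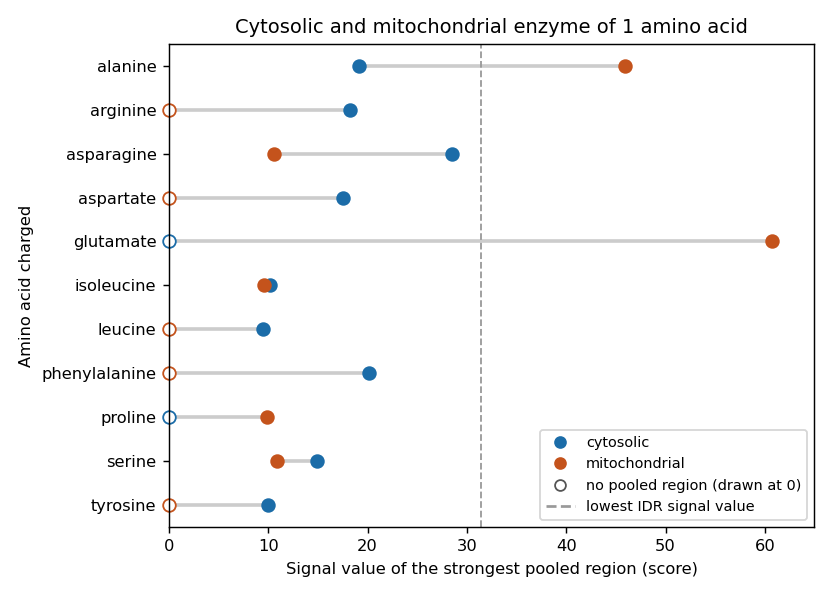
Pooled signal value (score) of the cytosolic and the mitochondrial gene for each of 11 amino acids, joined by a line, with open circles at 0 for genes with no pooled region and a dashed line at the lowest IDR value. For phenylalanine the higher of the cytosolic subunit genes, fars-1, is drawn; only the mitochondrial genes for alanine and glutamate pass the line.

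In mammals some cytosolic synthetases are held in a multi-enzyme complex. Of the 9 worm counterparts (ears-1, pars-1, iars-1, lars-1, qars-1, mars-1, kars-1, rars-1 and dars-1), 1 had an IDR region (11.1%, beside 9.52% of coding genes) and 6 a pooled region (66.7%, beside 39.3%). The median of those 6 was 17.9. The other 8 cytosolic genes all had a pooled region, with a median of 13.0, and none had an IDR region.

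Among the 24 listed members the median positions differed by class. The strongest pooled summit lay upstream of the 5′ end at 20 of 24 members (83.3%, beside 82.1% of coding genes with a pooled region), at a median distance of 292 bp beside 258 bp. For 2 of those 20, gars-1 and tars-1, the summit lay inside the gene, 707 and 971 bp from its outer end, and was upstream only of an internal 5′ end, as at 9.65% of the coding genes counted as upstream. The class medians were 312 bp (cytosolic), 49 bp (mitochondrial) and 518 bp (dual-role, from 4 genes that include those 2). A summit within 200 bp was found at 4 of 7 mitochondrial genes (57.1%), 2 of 13 cytosolic genes (15.4%) and 40.3% of coding genes. Among ribosomal protein genes with a pooled region the shares were 58.1% for mitochondrial and 10.8% for cytosolic ones.

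**Figure D5:**
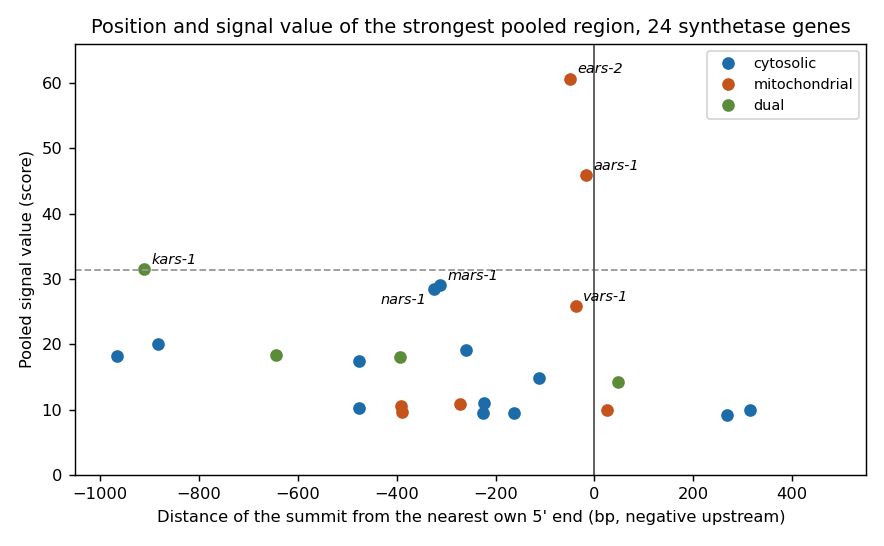
Distance of the strongest pooled summit from the nearest 5′ end of the gene (bp, negative upstream) against its signal value (score) for the 24 members with a pooled region, coloured by class, with the dashed line at the lowest IDR value. The 2 highest points, ears-2 and aars-1, lie within 50 bp of the 5′ end and kars-1 lies 910 bp away.

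Many of these regions also lay in the window of another gene. The strongest pooled region was shared with another coding gene at 14 of 24 members (58.3%), beside 31.5% of coding genes with a pooled region, and all 3 IDR regions were shared, beside 42.4% of coding genes with one. The nearest upstream gene ran in the opposite direction, head to head, for 16 members, in the same direction for 13, and overlapped the synthetase gene for 3. Of the 16 head-to-head members 13 (81.2%) had a pooled region and 3 (18.8%) an IDR region, beside 43.4% and 12.9% of the 8426 head-to-head coding genes. In the tandem arrangement 8 of 13 members (61.5%) had a pooled region and none an IDR region, beside 36.3% and 7.09% of 10166 tandem genes. Of the 12 mitochondrial genes, 8 were tandem, at a median of 158 bp behind the gene upstream, and 3 of those 8 had a pooled region. A region could also lie farther out: 13 members (40.6%) had an IDR summit within 5 kb, on either side, of the 5′ end of their longest-coding transcript, beside 24.1% of coding genes by the same rule. The nearest of those outside the window was 1727 bp downstream of the fars-1 5′ end, followed by 1830 bp upstream of that of iars-2.

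Replicate 2 had the higher value at 9 of the 16 members listed in both (56.2%), beside 74.9% of the 6439 coding genes listed in both, and replicate 2 divided by replicate 1 had a median of 1.34 in each set. Across genes, the log10 values of the replicates had a Pearson correlation of 0.481 and a Spearman correlation of 0.324 over the 16 members, beside 0.769 and 0.696 over the 6439 genes. These describe 2 libraries and have no test. By the strongest region of each replicate, higher values in replicate 1 were found at aars-1, kars-1, mars-1, dars-1, sars-1, hars-1 and qars-1. Those regions, here and in the ratio and correlations, need not lie at the same place in the window. At sars-1 they lay 132 bp downstream in replicate 1 and 153 bp upstream in replicate 2. Nearest the pooled sars-1 summit, replicate 1 had 6.82 and replicate 2 had 7.01.

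Motifs were sought on both strands within 50 bp of the strongest pooled summit of the 24 members. The AP-1 site TGACTCA, the CRE TGACGTCA, the amino acid response type of C/EBP-ATF site TGATGCAA, the E-box CACGTG and the GAGA repeat GAGAGAGA were in none of the 24. Their shares among the 9112 pooled regions in promoter windows were 1.84%, 0.702%, 0.549%, 2.99% and 2.72%, and all stayed at 0 of 24 within 100 bp. The GATA site TGATAA was in 1 of 24 regions (4.17%), beside 17.0% of pooled promoter regions, and that one, shown with the site in capitals, was at the leucyl gene lars-1 (chrIII:4186976-4187076, minus strand).
lars-1: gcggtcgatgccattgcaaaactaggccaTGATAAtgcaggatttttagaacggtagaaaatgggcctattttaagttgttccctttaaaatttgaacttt
The median share of G and C within 50 bp of the summit was 38.6% in the members, 36.6% in pooled promoter regions and 43.6% in IDR promoter regions. None of the 6 motifs contains another, and a missing match says only that these letters are not in this window. The printed aars-1 sequence holds AGAGAGAG, which starts the same repeat at its other letter and was not sought.

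The genes that make charged tRNA were set beside 10 genes listed as its users and partners. The list also counted rtcb-1, for a tRNA ligase, so its shares are not those of users of charged tRNA alone. Of those 10 genes 5 (50%) had an IDR region, beside 9.52% of coding genes, and 9 (90%) a pooled one, beside 39.3%. The elongation factor genes that deliver charged tRNA, eef-1A.2 and eef-1A.1, had pooled values of 143 and 111. In the replicates eef-1A.2 had 62.1 and 82.2, and eef-1A.1 had 50 and 60.7. The eef-1A.1 summit lay 402 bp upstream of that gene but 139 bp upstream of its divergent neighbour rfc-4. The eef-1G and eef-1B.1 genes, for subunits of the exchange factor that recharges eEF-1A with GTP, had 97.0 and 93.5. Their summits lay 49 and 1 bp upstream of them, and also 131 bp upstream of ctf-4 and 330 bp upstream of aco-2. The fifth was rtcb-1, the tRNA ligase gene, at 31.5 pooled, 7.47 in replicate 1 and 24.7 in replicate 2, about level with kars-1. The rtcb-1 summit lay 748 bp upstream, in a 3′ untranslated region of F16A11.1. Those first 4 genes, which serve the cytosol, exceeded every synthetase gene in the pooled list and in each replicate. The mitochondrial factor genes of the list were lower, with pooled values of 13.2 at tufm-1, 14.6 at tufm-2, 16.8 at tsfm-1 and 17.7 at gfm-1, all below ears-2 and without an IDR region. The tenth gene, hpo-31, had only a replicate 1 region of 4.48.

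A list of 7 genes was chosen around the response to uncharged tRNA and amino acid shortage. The list also counted the related kinase gene pek-1 and the initiation factor gene eif-2A, so its shares are not those of that response alone. It held 2 genes with an IDR region (28.6%, beside 9.52% of coding genes) and 4 with a pooled one (57.1%, beside 39.3%). The IDR regions were at pek-1, for a kinase that responds to unfolded protein rather than to uncharged tRNA, with 78.0 pooled, 38.1 in replicate 1 and 37.4 in replicate 2, and atf-4, with 49.5, 18.5 and 26.6. The uncharged-tRNA sensor gene gcn-2 had 29.4 and gcn-1, for its partner, 15.4. The asparagine synthetase genes asns-1 and asns-2 had no region in the window, but an IDR summit of signal value 63.9 lay 566 bp downstream of the asns-2 5′ end, just outside it.

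Ribosomal protein genes served as a further comparison within translation. Of 79 cytosolic ones, 48 (60.8%) had an IDR region, beside 9.52% of coding genes. The median pooled value was 44.3 over the 74 with a pooled region. Only mars-1 and nars-1 of the cytosolic synthetases exceeded the lower quartile of that set, 25.9. Of the 66 mitochondrial ribosomal protein genes 12 (18.2%) had an IDR region, beside 2 of 12 mitochondrial synthetases, with medians of 16.8 and 10.9 over those with a pooled region.

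The symbol rule left out 3 synthetase genes with other names. The cytosolic valyl gene glp-4 had 26.6 pooled, no region in replicate 1 and 26.9 in replicate 2. The prx-10 locus, whose RefSeq product is a mitochondrial tryptophanyl enzyme, had 15.3, and Y105E8A.20 had only a replicate 1 region of 6.84. None had an IDR summit in the window.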

How the data were processed

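ChIP-seq regions of 2 replicates were analysed. Per the text deposited beside the samples, a list was made for each replicate from its reads and a control, 1 for the pooled replicates, and the IDR list from these. The authors deposited a signal score per region and the −log10 of a q-value, which was not used to rank. The aligner, the caller, their settings and the depth are not given in the sources here; ce10 lists and controls were not analysed here. Genes came from Ensembl release 115 and the 5′ ends from every annotated transcript of each coding gene. Replicate regions within 200 bp of a pooled summit were matched to it. Compartments were assigned from gene knowledge and checked against RefSeq product names. Members, classes, lists and motifs were chosen with earlier results of these data known, so counts and medians were set beside those of all coding genes with no test or p-value. Every member was named, with full values for those with an IDR summit and the 4 highest without. Scoring used Python 3.11.15, numpy 2.4.6 and pandas 2.3.3 and was checked on simulated regions.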

Additional observations from a re-analysis of the deposited data

How the results depend on the processing

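The IDR count of 3 synthetase genes was 2 in a window of 500 bp upstream to 200 bp downstream, beside 7.28% of coding genes. That window lost kars-1 and left 0 dual-role genes. With 2000 bp upstream, which added iars-2, the count was 4, beside 12.3% of coding genes. It was 1 (aars-1, so mitochondrial 1 and dual-role 0) when a summit counted only for the nearest 5′ end, beside 7.44% of coding genes. With the 1369 strongest IDR regions it was 1 (ears-2; mitochondrial 1, dual-role 0), beside 4.96% of coding genes. With the dual-role genes counted as cytosolic, that class had 1. The top 2738 regions of 1 replicate alone stood in for leaving out the other. Without replicate 1 the count was 2 (ears-2 and nars-1), beside 9.45% of coding genes. Without replicate 2 it was 4 (aars-1, ears-2, kars-1 and mars-1), beside 8.86% of coding genes. Over these settings the cytosolic count was 1 in each case, the mitochondrial count 1 to 2 and the dual-role count 0 to 1. Only ears-2 was in all but the nearest-end count. Cytosolic genes with any region were 8 to 14 in 1 replicate. The median signal value of all members, cytosolic and dual-role genes was 7.55 to 10.1, 7.57 to 8.50 and 10.1 to 10.2 in 1 replicate, and that of mitochondrial genes 6.85 to 13.2, where the scale is lower. The pooled median was 14.2 for members and for dual-role genes in the short window, 19.0 for mitochondrial genes with 2000 bp, 13.0 (cytosolic) and 18.1 (dual-role) from the longest-coding transcript alone, and 12.0, 10.1 and 13.8 (members, cytosolic, dual-role) for the nearest end. The GATA count was 2 within 100 bp. The other 73 values stayed within 1.5 times the count or the replicate spread of the median. Adding the 3 genes of other symbols, chosen after seeing the data, left the IDR count at 3. No paired analysis was possible because the study has 1 group. The causes of these changes were not tested, and unknown depth limits how far weak regions near the lowest listed values can be told from none.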
